A study of Xenopus tropicalis with 12 samples.

Results

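Between premetamorphosis and the climax of metamorphosis, a set of intestinal genes rose strongly in wild-type tadpoles and rose only in part in tadpoles without thyroid hormone receptors. These genes were chosen by their mean levels in the 4 groups of libraries, with a rule applied to the deposited read counts. Counts were first scaled by median-of-ratios size factors to give normalised counts. A gene was then a member if at least 1 wild-type library at stage 54 had more than 3 raw counts, its wild-type mean at stage 61 was at least 100 normalised counts and at least 8 times that at stage 54, its TRDKO mean at stage 61 was at least 2 times that at stage 54, and the TRDKO mean at stage 61 was at most 25% of the wild-type one. Of the 19921 Ensembl gene IDs counted, 878 met the conditions on wild-type tadpoles. Among these, 360 also met the condition on the TRDKO rise, 289 met the one on the TRDKO level at stage 61, and 81 met both and were the members.

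Poly-A-selected RNA was sequenced from whole Xenopus tropicalis intestine, in 3 libraries for each genotype and stage and 12 in all. TRDKO tadpoles (TRα-/- TRβ-/-) at stage 61, the metamorphic climax, were set against wild-type tadpoles (TRα+/+ TRβ+/+) at stage 61, and TRDKO tadpoles at stage 54, before metamorphosis, against wild-type tadpoles at stage 54. The knockouts are germline mutations, so every tissue of these animals lacked both receptors, and no hormone was added to the tadpoles that were sequenced. The study bred lines with different out-of-frame deletions in TRβ. Which line gave the sequenced RNA is not given in the sources used here. For its PCR assays the study combined tissue of several animals of a genotype before RNA extraction, and whether the sequenced RNA was prepared in that way is not stated. Replicates are described as biological. If they came from shared pools, the p-values below measure only the spread between these samples.

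Thyroid hormone (T3) acts in the nucleus through TRα and TRβ, which bind DNA as heterodimers with retinoid X receptors. Without T3 the receptors recruit corepressor complexes and hold T3-inducible genes down, and with T3 they exchange these for coactivators and switch the same genes on. In the frog intestine the hormone peak at climax accompanies the death of the larval epithelium, the appearance of adult epithelial stem cells and the growth of connective tissue and muscle. RNA of whole intestine mixes all of these cell types. Fewer cells of a type and less RNA per cell therefore cannot be told apart in any value given here.

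The deposited counts list Ensembl IDs without gene names, and 0 of them matched the gene table used here, so the members are not described by function. The receptor genes and the markers of intestine and of other tissues could not be looked up in the libraries for the same reason. This is a limit of that gene table, since the paper converted most of its Ensembl IDs to human ones for its pathway work. Total counts ranged from 20112705 to 37936503 per library and size factors from 0.511 to 1.91. Replicate 3 of TRDKO stage 54 stood apart from the other libraries of its group. Over all genes tested, the median coefficient of variation of normalised counts within a group was 4.93% in TRDKO and 4.76% in wild-type libraries at stage 61. At stage 54 it was 19.2% in TRDKO and 6.55% in wild-type libraries.

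The levels that chose the members are given as a description, without a test. At stage 61 the members had a median of 96.4 normalised counts in TRDKO tadpoles (range 4.05 to 3252) and of 706 in wild-type tadpoles (range 101 to 19456). At stage 54 their median was 30.9 in TRDKO tadpoles (range 0 to 950) and 12.3 in wild-type tadpoles (range 2.33 to 435). The members thus span a wide range of abundance at both stages. Every wild-type library at stage 61 lay above every TRDKO library of that stage in all 81 members, and above every wild-type library at stage 54 in all 81. Over all genes tested this held in 46.3% and 46.7%, and since the rule used both comparisons nothing is read from these counts. Summed over the 81 members, reads made up 0.0722% to 0.0742% of all counts in the TRDKO libraries at stage 61, against 0.852% to 0.864% in the wild-type ones. At stage 54 they made up 0.0206% to 0.0308% in the TRDKO libraries, against 0.00842% to 0.00882% in the wild-type ones. These shares are of raw totals and take no account of the size factors.

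**Figure D1:**
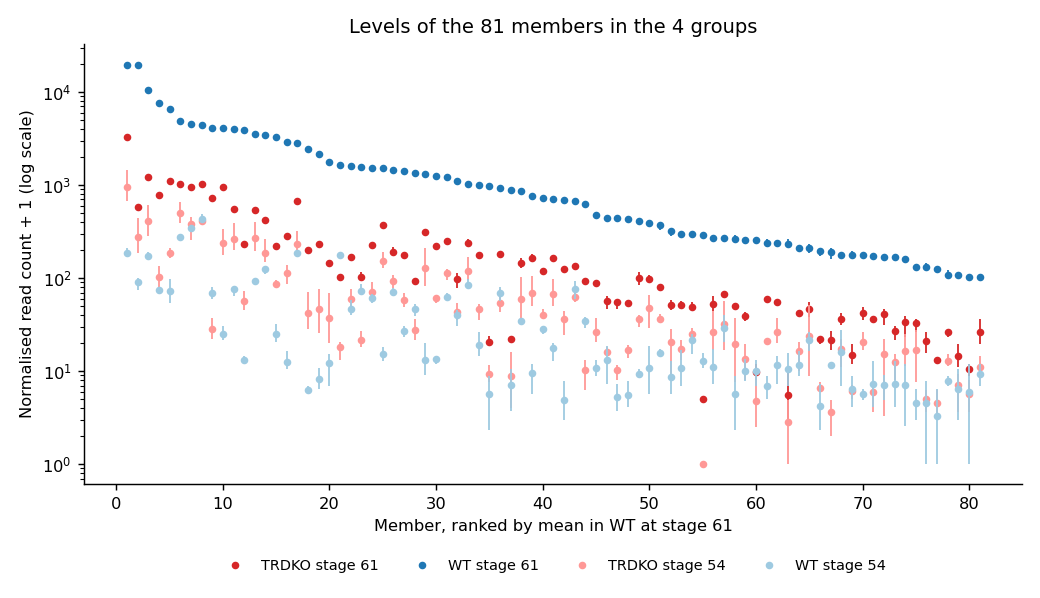
Normalised read counts plus 1 (log axis) of the 81 members, ranked by their mean in wild-type tadpoles at stage 61. Dots are means of 3 libraries and bars run from the lowest to the highest library. The wild-type stage 61 dots lie above all other groups for every member, as the rule requires, and the TRDKO stage 61 dots lie between them and most stage 54 dots.

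At stage 61 the TRDKO level was 1.40% to 24.99% of the wild-type level, with a median of 16.6% and quartiles of 10.8% and 21.1%. It was at most 20% in 55 members, at most 10% in 18 and at most 5% in 6. The wild-type rise between the stages ranged from 9.03-fold to 454-fold (median 32.4-fold) and exceeded 50-fold in 28 members. The TRDKO rise had a median of 2.67-fold over the 80 members with TRDKO reads at stage 54, with quartiles of 2.22-fold and 3.51-fold. Across the 80 members the log2 folds of the 2 genotypes had a Pearson r of 0.24 and a Spearman rho of 0.37, given as a description of members measured in the same libraries. The TRDKO rise exceeded 4-fold in 14 members and 8-fold in 2, the highest being 26.8-fold. The gain of normalised counts between the stages in TRDKO tadpoles was 1.12% to 18.6% of the gain in wild-type tadpoles, with a median of 11.3%.

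**Figure D2:**
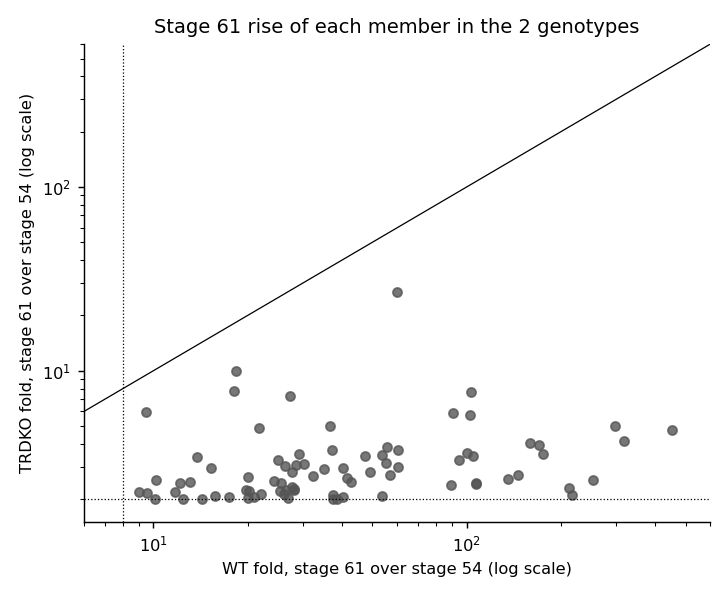
Fold of stage 61 over stage 54 in TRDKO tadpoles against the same fold in wild-type tadpoles, both on log axes, for the 80 members with TRDKO reads at stage 54. Dotted lines mark the limits of 2-fold and 8-fold in the rule and the solid line marks equal folds. TRDKO folds have a median of 2.67, and the 3 members with the largest wild-type folds (454, 318 and 298) have TRDKO folds of 4.77, 4.14 and 5.02. Every point lies under the line of equal folds.

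Genes lay close on both sides of 3 of the 4 limits, all but the one on the wild-type rise. The member with the smallest TRDKO rise had 2.01-fold, and the nearest gene outside, with all other conditions met, had 1.997-fold. At the 25% limit the nearest values were 24.99% inside and 25.1% outside. The smallest wild-type rise was 9.03-fold among the members and the nearest one outside was 6.96-fold. The lowest wild-type mean at stage 61 was 101 normalised counts, against 98.8 for the nearest gene outside. Of genes that met every other condition, 208 missed the limit on the TRDKO rise and 279 the 25% limit, against 14 and 11 for the limits on the wild-type rise and level.

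Of the 5 most abundant members at climax, 3 are given here by rank. The member ranked first in wild-type tadpoles had 3154, 3260 and 3343 normalised counts in the TRDKO libraries at stage 61, against 19405, 19693 and 19269 in the wild-type ones. At stage 54 it had 679, 716 and 1454 in the TRDKO libraries, against 178, 171 and 208 in the wild-type ones. The TRDKO libraries therefore lay above the wild-type ones before climax and far under them at climax, with no overlap at either stage.

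The member ranked second reached nearly the same wild-type level but a much lower TRDKO level. It had 555, 580 and 603 normalised counts in the TRDKO libraries at stage 61, against 18977, 20013 and 18917 in the wild-type ones, which is 3.002% of the wild-type mean. At stage 54 it had 184, 201 and 443 in the TRDKO libraries, against 93.9, 98.5 and 74.2 in the wild-type ones. Replicate 3 of TRDKO stage 54 was the highest of its group for this member and for the one ranked first. The member at rank 4 differed less between the genotypes at stage 54. It had 78.4, 91.8 and 135 in the TRDKO libraries, against 74.3, 67.5 and 77.3 in the wild-type ones. The nearest libraries of the genotypes, at 78.4 and 77.3, were almost equal. The fitted log2 difference was 0.52, under the 2-fold change that a call needed in the test described below. The TRDKO rise of this member, 7.63-fold, was among the larger ones, against 103-fold in wild-type tadpoles.

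The spread between libraries was small at climax and large before it. The median coefficient of variation of the members was 6.96% in TRDKO and 4.44% in wild-type libraries at stage 61. At stage 54 it was 34.2% in TRDKO and 24.9% in wild-type libraries. Counts were low before climax, where 39 of the 81 members had at most 10 raw counts in every wild-type library at stage 54, and 30 had at least 1 such library at or under 3 counts. Where a library had no reads of a gene, up to 3 counts remain possible, equal to 2.29 to 3.93 normalised counts in the TRDKO libraries and 4.05 to 5.87 in the wild-type libraries of stage 54. These limits cover counting error only.

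Replicate 3 of TRDKO stage 54 was higher than replicates 1 and 2 in most members. It was the highest of the 3 libraries in 56 members and the lowest in 12. The ratio of replicate 3 to the mean of replicates 1 and 2 had a median of 1.41 over 80 members, against 1.01 over all genes tested. The ratio exceeded 1.5 in 43.8% of these members and in 19.03% of all genes with a ratio. Since a higher stage 54 level lowers the TRDKO rise, this library bore on who is a member. Set against replicate 3 alone, the TRDKO stage 61 mean was at least 2 times higher in 50 of the 81 members, against 74 with replicate 1 alone and 77 with replicate 2 alone. With replicate 3 left out, the rule gave 104 genes, 76 of them among the 81. All 3 TRDKO libraries at stage 61 lay above all 3 at stage 54 in 76 members, and in 32.7% of all genes tested. The rule used this comparison, so the count is a description.

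**Figure D3:**
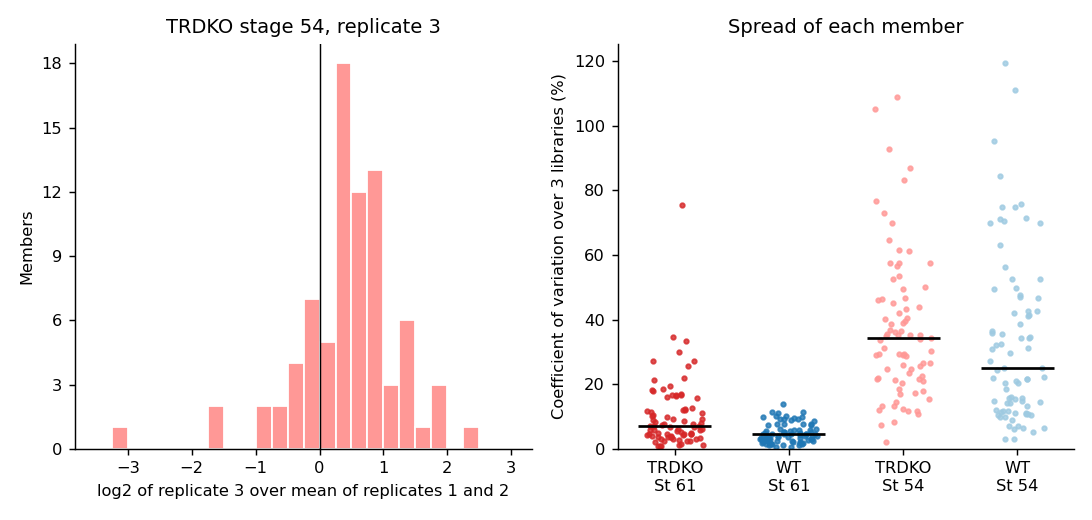
Left, number of members by log2 of replicate 3 over the mean of replicates 1 and 2 in TRDKO tadpoles at stage 54; the vertical line marks equality and most members lie to its right. Right, coefficient of variation over the 3 libraries of each group in percent, a dot for each member and a bar at the median, which is 6.96% in TRDKO and 4.44% in wild-type libraries at stage 61. At stage 54 the bars lie at 34.2% in TRDKO and 24.9% in wild-type libraries.

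The rule does not compare the genotypes at stage 54, although it used the same libraries and keeps both stage 54 levels low. This comparison asks whether the members differed before the hormone peak. It was tested for every gene with edgeR's quasi-likelihood test on all 12 libraries, and a call needed more than a 2-fold difference as well as an adjusted p (Benjamini-Hochberg) under 0.05. All 81 members were among the 13954 genes tested, since their wild-type level at stage 61 carried them past the filter on low counts. In a fit on the 6 libraries of stage 54 alone, where that level plays no part, 60 members passed the filter, of which 28 were called higher and 4 lower in TRDKO tadpoles, against 18.9% and 12.5% of the 12546 genes tested there. The 21 others had too few counts at stage 54 to be tested. The rule used the means of these same libraries, so the calls of this fit are a description. The counts that follow, from all 12 libraries, include the 21 members not tested there and are also given as a description. In TRDKO tadpoles, 35 members (43.2%) were higher than in wild-type tadpoles and 8 (9.88%) were lower, while 38 were not called. Over all genes tested, 21.7% were higher and 12% were lower. The fitted log2 fold change had a median of 0.87 over the members and of 0.12 over all genes tested. Under library size alone as scaling, these medians were 1.43 and 0.69, and 49 members were higher and 6 lower, against 37.0% and 4.24% of all genes tested.

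Every TRDKO library at stage 54 lay above every wild-type library in 38 members (46.9%) and in 34.9% of all genes tested. The reverse held in 8 members and in 33.2% of all genes tested. With replicate 3 of TRDKO stage 54 left out, 30 members were called higher and 8 lower, of which 28 and 7 were among those called with all libraries. Over all genes tested without it, 21.5% were higher and 12.5% lower.

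**Figure D4:**
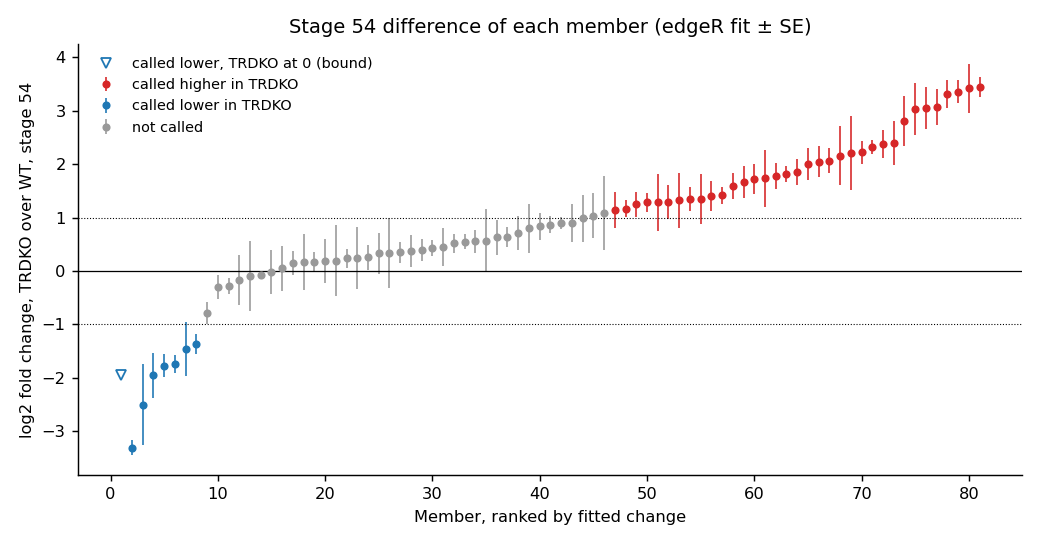
Fitted log2 fold change of TRDKO over wild-type tadpoles at stage 54 for the 81 members, ranked, with standard errors from the edgeR fit. These errors came from the F statistic and may be too small. Red, blue and grey mark the 35 members called higher, the 8 called lower and the 38 not called, and dotted lines mark 2-fold changes. The open triangle is a member with no TRDKO reads at stage 54, drawn at its bound.

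At stage 61 the TRDKO level of the 35 members called higher before climax was 3.002% to 24.6% of the wild-type level (median 17.6%). In the 8 members called lower it was 1.40% to 17.7% (median 6.37%), and in the 38 not called it was 1.98% to 24.99% (median 16.4%). The ranges of the 3 groups overlap, and the difference between them was not tested. The rule capped the TRDKO percentage of the wild-type level at climax. It also asked for a TRDKO rise, so members with a low TRDKO level before climax could enter at a lower percentage. The groups include members with too few counts before climax to be tested on the libraries of that stage alone. The medians thus partly restate the choice of members, and nothing is read from the gap between them.

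Among called members without overlap of the genotypes, those with the largest fitted stage 54 differences are given by ID, 2 in each direction. ENSXETG00000021035 had 129, 142 and 191 normalised counts in the TRDKO libraries at stage 54, against 11.7, 13.5 and 17.4 in the wild-type ones. All TRDKO libraries were far above all wild-type ones, and edgeR's quasi-likelihood test gave a log2 difference of 3.44 with a standard error of 0.19 (adjusted p = 6.43e-08). DESeq2 on all 12 libraries gave 3.44 with a larger standard error of 0.31. On the 6 libraries of stage 54 alone edgeR's quasi-likelihood test gave 3.44 with a standard error of 0.26 (adjusted p = 1.69e-04). At stage 61 the gene had 372 ± 3.98 normalised counts in TRDKO tadpoles and 1522 ± 22.8 in wild-type tadpoles (SD, n = 3 each).

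ENSXETG00000000401 had 89.4, 81.3 and 212 normalised counts in the TRDKO libraries at stage 54, against 9.78, 8.10 and 18.9 in the wild-type ones. The genotypes did not overlap, and replicate 3 was more than 2 times as high as the other TRDKO libraries. Its log2 difference in the edgeR fit was 3.43, with a standard error of 0.46 and an adjusted p = 5.29e-05. With replicate 3 of TRDKO left out it was 2.82, the lowest value with any library of the comparison left out. On the 6 libraries of stage 54 alone edgeR's quasi-likelihood test gave 3.39 with a standard error of 0.54 (adjusted p = 0.00238). At stage 61 the gene had 312 ± 19.2 normalised counts in TRDKO tadpoles and 1311 ± 63.9 in wild-type tadpoles (SD, n = 3 each).

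ENSXETG00000009648 went the other way. It had 12.1, 19.7 and 19.8 normalised counts in the TRDKO libraries at stage 54, against 168, 178 and 177 in the wild-type ones, which edgeR fitted as a log2 difference of -3.31 with a standard error of 0.14 (adjusted p = 1.08e-08). DESeq2 on all 12 libraries fitted the gene at -3.34 with a larger standard error of 0.23. On the 6 libraries of stage 54 alone edgeR's quasi-likelihood test gave -3.31 with a standard error of 0.22 (adjusted p = 1.30e-04). The TRDKO mean was 10.1-fold lower and no library overlapped. At stage 61 it had 95.6, 104 and 108 in the TRDKO libraries, against 1588, 1638 and 1736 in the wild-type ones. The TRDKO level at climax thus lay under the wild-type level of stage 54. Between the stages the gene rose 5.96-fold in TRDKO and 9.49-fold in wild-type tadpoles. Its TRDKO mean was 16.2-fold lower at stage 61, against 10.1-fold lower at stage 54, so it was low in TRDKO tadpoles at both stages.

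ENSXETG00000028050 had 0 raw counts in each TRDKO library at stage 54, against 5, 11 and 7 in the wild-type ones. Its TRDKO level was at least 3.86-fold lower, with the floor of 3 counts in each TRDKO library. Its fitted difference against a group at 0 is no measure of size, so its place among the largest rests on the fit alone. It passed the filter only through its wild-type counts at stage 61 and was not tested on the stage 54 libraries alone. At stage 61 it had 5, 4 and 4 raw counts in the TRDKO libraries, against 518, 505 and 325 in the wild-type ones. The TRDKO mean at stage 61 was 1.32 times the floor at stage 54. That floor allows 3 counts in every TRDKO library at once, so it is a cautious bound, and with it a TRDKO rise of 2-fold is not shown. The gene met the condition on the TRDKO rise with a TRDKO mean of 0 at stage 54, which lies under that floor. In 1 other member every TRDKO library at stage 54 was also at or under 3 counts. Its TRDKO libraries at stage 61 had 11, 3 and 2 raw counts, so its TRDKO rise of 2.51-fold rests mainly on replicate 1.

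**Figure D5:**
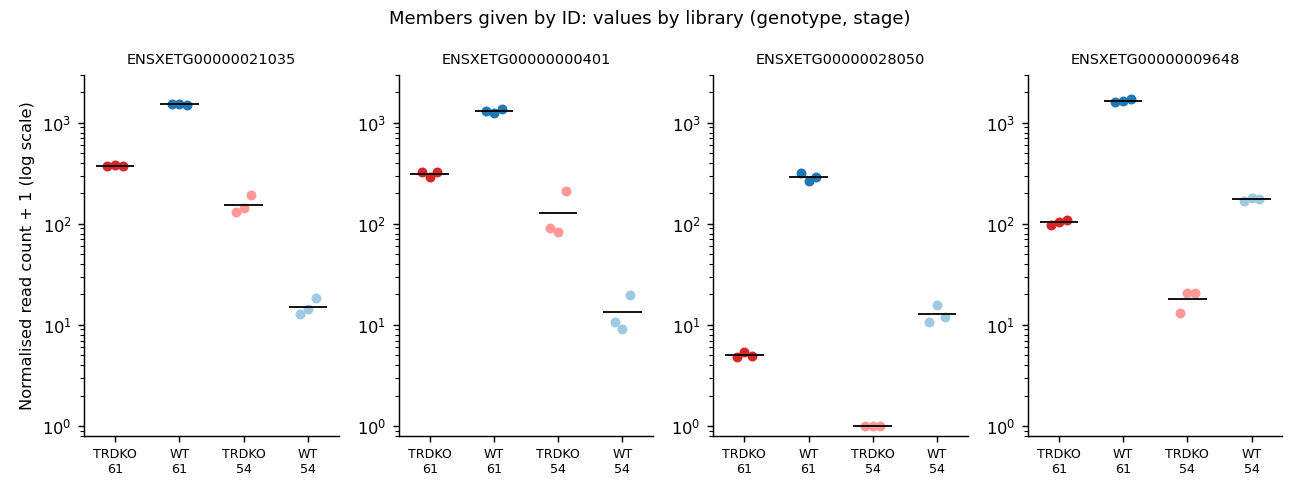
Normalised read counts plus 1 (log axis) of the 4 members given by ID, with a dot for each of the 3 libraries and a bar at the mean, by genotype and stage. In the left pair of panels the TRDKO stage 54 dots lie above the wild-type stage 54 dots, and in the right pair they lie under them, as do the TRDKO stage 61 dots.

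How far the TRDKO level at climax had moved from the wild-type level before metamorphosis was compared in the same fit. This contrast changes genotype and stage together and shares the wild-type libraries of stage 54 with the comparison above. Both of its means entered the rule, which asks for a low wild-type level at stage 54 relative to stage 61 and for a TRDKO rise, so its counts partly restate the choice of members and are a description. The TRDKO stage 61 mean was 0.341 to 39.4 times the wild-type stage 54 mean, with a median of 5.09. It was more than 2 times as high in 73 members, at least 8 times as high in 27 and lower in 4. Every TRDKO stage 61 library lay above every wild-type stage 54 library in 76 members and in 46.9% of all genes tested, and the reverse held in 2 members and in 41.5%. By the same thresholds 72 members (88.9%) were higher and 1 lower, beside 28.3% and 22.3% of all genes tested, and nothing is read from the gap. Under library size alone as scaling, 77 members were higher and 0 lower, beside 41.4% and 12.7% of all genes tested, whose median log2 fold change moved to 0.71, against 0.15. The lower member was ENSXETG00000028050, with a fitted log2 difference of -1.55 and a standard error of 0.27 in edgeR. DESeq2 gave -1.60 with a larger standard error of 0.53. Both fits rest on 5, 4 and 4 raw counts in the TRDKO libraries, against 5, 11 and 7 in the wild-type ones. The gene passed the filter only through its wild-type counts at stage 61. It was not tested on the 6 libraries of this contrast alone. With library size alone as scaling its fitted log2 difference was -0.98. For ENSXETG00000009648 the fitted log2 difference was -0.76 with a standard error of 0.11, which is less than 2-fold. DESeq2 gave -0.78 with a standard error of 0.14. For ENSXETG00000021035 and ENSXETG00000000401 the edgeR fit gave 4.70 and 4.67.

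Genes that met the same conditions on wild-type tadpoles but failed 1 of the TRDKO conditions were set beside the members at stage 54. They were not matched on the size of the wild-type rise. Its median was 17.3-fold in those that failed the TRDKO rise and 18.1-fold in those that failed the 25% limit, against 32.4-fold in the members. Of the 208 genes at or under 25% of wild type at stage 61 whose TRDKO rise was under 2-fold, 63.9% were called higher in TRDKO tadpoles at stage 54 and 0.481% lower. Of the 279 genes with a TRDKO rise of at least 2-fold that exceeded 25% at stage 61, 82.8% were called higher and 0.717% lower. Their median fold of TRDKO over wild-type means at stage 54 was 2.67 and 3.94 in the order given, and 1.78 in the members. The rule sorts these genes partly by their TRDKO level at stage 54, and the differences were not tested.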

How the data were processed

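Members and lists were chosen with earlier results of these data known. Per the labels and the paper, the authors aligned reads to a frog genome assembly (STAR 2.6.1c) and counted them per Ensembl gene (featureCounts 1.6.3). They deposited raw read counts without normalization. Strand and multi-mapping settings of the counting are not given in the sources used here, so overlapping genes and near-identical copies are uncertain. Library columns were matched by title. Size factors were medians of ratios over the 12983 genes with counts in all 12 libraries. Tests used edgeR 4.0.16 in R 4.3.3 (filterByExpr with 4 groups, TMM, 1 mean per genotype and stage, quasi-likelihood F test, Benjamini-Hochberg adjustment over 13954 genes). Standard errors came from the F statistic. For most members given by ID they lay under those of DESeq2, so they may understate the error. The procedure was tested on simulated data. Alternatives were DESeq2 1.42.0, other scalings, filters, thresholds and limits of the rule, the replicate block, and libraries left out in turn. Members given by ID were the 2 with the largest positive and the 2 with the largest negative stage 54 change among called members without overlap. Planned lists of pathway and cell type genes, written by symbol, could not be matched to the IDs and were not run. Sequences were not used here. Figures were drawn with matplotlib 3.10.9.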

Additional observations from a re-analysis of the deposited data

Results flagged for a closer look

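The effect of stage was compared between the genotypes with the interaction contrast of the same edgeR fit, and it was lower in TRDKO than in wild-type tadpoles in 79 of the 81 members at an adjusted p under 0.05. This tested difference between the stage effects is why the set is listed here. The stage effect in TRDKO tadpoles was the lower one in 37.5% of all genes tested and the higher one in 30%. Under library size alone as scaling it was lower in 80 members, and lower in 74.0% and higher in 8.31% of all genes tested. The median difference of the log2 stage effects was -3.67 over the members and -0.18 over all genes tested. The contrast is made of the comparisons that chose the members, so the count is a description and supports nothing further. DESeq2 also gave 79 members, beside 33.4% of all genes tested. Leaving out single libraries gave 76 to 79, beside 31.9% to 43.0% of all genes tested. The lowest count of members and the highest share of all genes both came without TRDKO stage 54 replicate 3. One of the 2 members that missed the threshold was ENSXETG00000028050 (adjusted p = 0.376, edgeR), whose TRDKO values rest on 0 to 5 counts.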

How the results depend on the processing

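The number of members depended on scaling and limits. Library size alone gave 182 genes in place of 81, TMM 85. A limit of 50% or 12.5% in place of 25% gave 195 or 28, and a TRDKO rise of at least 1.5-fold or 3-fold gave 136 or 32. With each library left out in turn the rule gave 69 to 104, the highest without TRDKO stage 54 replicate 3. At stage 54, members called higher and lower were 21 and 5 with glmTreat against a 2-fold change (13.6% and 7.09% of all genes tested). On the 6 libraries of stage 54 alone, 60 of the 81 members were tested and 4 were lower (12.5% of all genes tested). Leaving out single libraries gave 30 to 35 higher and 6 to 8 lower, beside 20.7% to 21.7% and 11.5% to 12.5% of all genes tested. Against wild-type stage 54, the 1 member lower at TRDKO stage 61 became 0 with library size alone and with glmTreat, and 2 with no fold threshold. Of all genes tested, these settings called 12.7%, 18.0% and 37.1% lower, in the order given. On the 6 libraries of that comparison 76 of the 81 members were tested. The lower member was not among those tested, and 0 were called lower, beside 23.1% of all genes tested. Single libraries left out gave 1 to 2, beside 21.5% to 21.9% of all genes tested. The remaining counts stayed within 1.5 times. The interaction alternatives were chosen after seeing the data. Same-numbered libraries did not deviate together (correlations from -0.03 to 0.04). The replicate block gave 33 members higher and 8 lower at stage 54, beside 21.0% and 12.2% of all genes tested. Against wild-type stage 54 it gave 72 and 1, beside 28.2% and 22.2%. Causes of these shifts were not tested.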
